A study of Homo sapiens with 4 samples.

Results

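The genes described are 10 members of the ETS family of transcription factors, ERG, FLI1, ETS1, ETS2, ETV1, ETV4, ETV5, ELF3, EHF and ELK3, taken by their symbols from the 60623 genes counted in each library. They were measured by RNA-seq in BICR10, an established human head and neck cancer cell line. Cells with a control hairpin (shControl, 2 libraries) were compared with cells carrying a hairpin that targets YEATS2 (shYEATS2, 2 libraries). YEATS2 is a reader of acylated histones and a subunit of the ATAC acetyltransferase complex. Cells of both groups received a lentiviral hairpin and puromycin selection. The study used a pair of YEATS2 hairpins, and which of them each shYEATS2 library carried is not stated. The study describes its replicates in general as biological, but does not say for these libraries whether they came from separate cultures, so the p-values measure only the spread between them, which may be technical.

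ETS factors share a DNA-binding domain that recognises a GGAA core, and differ in the domains around it and in the cells that use them. Many are endpoints of the RAS-ERK pathway: ERK phosphorylates several members, and the repressor CIC, which ERK signalling inactivates, holds the PEA3 group (ETV1, ETV4 and ETV5) off. ERG and FLI1 are best known from endothelial and blood cells, whereas ELF3 and EHF are epithelial members.

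The targeted gene was lower in both shYEATS2 libraries, with YEATS2 at 66.1 and 66.7 CPM (counts scaled to library size with TMM factors) in shControl and 29.2 and 29.1 CPM in shYEATS2 (2.28-fold lower, log2 fold change −1.19, SE 0.08, edgeR adjusted p = 3.55e-21). Depth moved with the groups, since the counts on genes came to 47297970 and 39824898 in shControl and to 24072396 and 11334133 in shYEATS2. Of 17058 genes tested, 4019 were called lower (23.6%) and 3857 higher (22.6%) at an adjusted p under 0.05, and 6194 (36.3%) had both shYEATS2 libraries below both shControl libraries, against 6011 (35.2%) with both above. With library totals alone in place of TMM scaling, the split was 2567 lower and 5441 higher, and the median log2 fold change of all genes moved from −0.01 to 0.13. The epithelial markers KRT8 and KRT18 were present, but GRHL2 was at 0 in every library and 5 of 14 epithelial markers stayed under 1 CPM in all 4. The summed level of 10 fibroblast markers was 7295 and 7205 CPM in shControl and 2361 and 2221 CPM in shYEATS2. Most of this sum came from the collagens COL1A1, COL1A2 and COL3A1. Of 8 fibroblast markers tested, 7 were called lower and FAP was not called (log2 fold change −0.11), while TCF21 was at 0 in every library. The sum of the 14 epithelial markers, most of it KRT8 and KRT18, went from 418 and 413 to 246 and 234 CPM. Of 9 epithelial markers tested, 6 were called lower, among them KRT5 (log2 fold change −3.78) and DSP (−1.97). KRT14, also among the 6, had 56, 45, 7 and 2 counts in shControl 1 and 2 and shYEATS2 1 and 2. It entered the test only through its level in shControl, so a difference was built into its passing. The cadherin CDH1 (2.91, from 16, 12, 72 and 25 counts in shControl 1 and 2 and shYEATS2 1 and 2) and the integrin ITGA6 (1.49) were called higher. CDH1 would not have entered the test on its shControl libraries alone. The part of these shifts in the results on ETS genes was not tested. In bulk RNA, fewer cells of a type and less RNA per cell cannot be told apart.

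Of the 10 members, 8 passed the filter on low counts, and among these ERG was called lower, ETS1, ETV1, ETV4, ETV5, EHF and ELK3 higher, and ETS2 in neither direction. FLI1 and ELF3 were too low to test. EHF passed the filter only through its level in shYEATS2, so a difference was built into its passing. The other 7 tested members gave 5 higher calls, beside the 22.6% of all tested genes called higher. The median log2 fold change of these 7 was 0.62, against −0.01 over all genes tested. None of the 7 had overlapping groups, with 6 above in both shYEATS2 libraries, as were 35.2% of all tested genes, and 1 below, as were 36.3%. At a change of at least 2-fold, ETV4 and ETV5 were called higher, besides EHF, as were 5.99% of all tested genes. On the 7 tested members other than EHF, DESeq2 made the same calls, beside 16.5% of 17244 genes called lower and 13.9% called higher by it. The members were chosen with results of these data known, so these counts are a description.

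**Figure D1:**
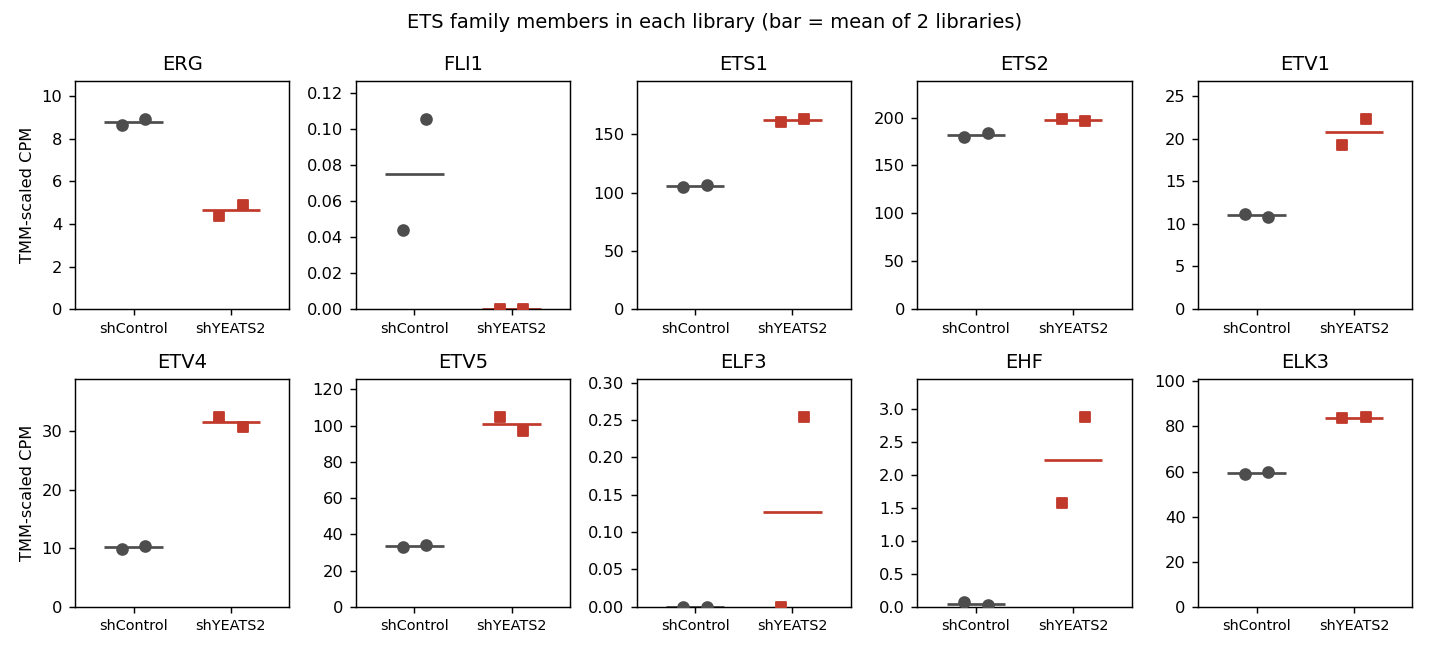
Level of each of the 10 members in the 4 libraries, in TMM-scaled CPM on axes that start at 0 and differ between panels (grey circles, shControl, red squares, shYEATS2, line, mean of 2 libraries). ERG was lower in both shYEATS2 libraries (4.38 and 4.92 CPM against 8.66 and 8.94), ETV4 and ETV5 were about 3 times as high, and FLI1 and ELF3 rest on at most 6 counts.

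ERG (ENSG00000157554, GRCh38 chr21:38380027-38661780, minus strand) is an endothelial and blood-lineage ETS factor, also known as the partner of the TMPRSS2 fusion in prostate cancer. Its counts were 393 and 338 with the control hairpin, against 111 and 58 with the YEATS2 hairpin. The levels were 8.66 and 8.94 CPM in shControl (8.80 ± 0.199, SD, n = 2) and 4.38 and 4.92 CPM in shYEATS2 (4.65 ± 0.381, SD, n = 2). Neither shYEATS2 library reached the level of a shControl library. ERG fell to 52.1% of control (log2 fold change −0.94, SE 0.15, 95% interval −1.25 to −0.64, edgeR adjusted p = 4.17e-07), and the log2 fold change stayed between −1.01 and −0.85 when each library was left out in turn. Depth bears on this call. Thinned to the smallest library total, ERG had a log2 fold change of −0.65 (edgeR adjusted p = 0.0645), and 4 further thinnings, added after this value was seen, gave −0.77, −0.70, −1.11 and −0.75 (adjusted p = 0.0319, 0.0663, 0.00185 and 0.0266). The study singled out ERG partly on these same libraries, so its fall here is not independent evidence of a direction.

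Markers of endothelial cells, where ERG is best known, were sparse. TIE1, CLDN5 and SOX17 were at 0 in every library, CDH5 had 1 count in 1 library, and 9 of the 13 endothelial markers stayed under 1 CPM in all 4. The endothelial list summed to 59.8 and 63.2 CPM in shControl and 39.1 and 34.2 CPM in shYEATS2, most of it from KDR, EGFL7 and SOX18. Of 6 endothelial markers tested, 2 were called lower, beside 23.6% of all tested genes. KDR, a VEGF receptor, was 2.01-fold lower and SOX18, an endothelial SOX factor, 3.23-fold lower. TEK, the angiopoietin receptor, had 4, 6, 9 and 7 counts (shControl 1 and 2, shYEATS2 1 and 2). No p is given for TEK, since it entered the test only through its level in shYEATS2. PECAM1, EGFL7 and ROBO4 did not pass the test. The relation of the endothelial list to ERG was not tested. Haematopoietic markers summed to between 1.14 and 2.91 CPM, with CD3E and VAV1 at 0.

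The 3 genes whose pattern over the 4 libraries was most like that of ERG, among 2791 tested genes of similar level, were STARD10, VASN and FTH1P10. Their distances from ERG in centred log2 CPM were 0.0485, 0.0527 and 0.0574. STARD10, a phospholipid transfer protein, was at 15.5 and 15.5 CPM in shControl and 7.81 and 8.48 CPM in shYEATS2. FTH1P10 is a ferritin pseudogene whose reads may belong to its parent gene, so its value is uncertain.

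RefSeq gives 4 start sites for ERG, and the 250 bases before 2 of them are shown because they differ in composition, while counts per gene cannot separate the starts. Both lie within the GENCODE span of ERG and outside its exons, on the minus strand of GRCh38.p14. The window before the upstream start, chr21:38660668-38660917, had 77.2% G and C and 4 GC boxes (GGGCGG on either strand, in capitals), a motif found in 42.5% of the 34943 such windows of all genes:
ERG upstream start: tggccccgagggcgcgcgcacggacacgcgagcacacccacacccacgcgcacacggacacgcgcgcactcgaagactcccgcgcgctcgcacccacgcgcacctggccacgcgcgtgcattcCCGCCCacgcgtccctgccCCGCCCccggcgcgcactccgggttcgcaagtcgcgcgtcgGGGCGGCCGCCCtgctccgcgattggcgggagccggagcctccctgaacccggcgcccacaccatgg
The window before an internal start, chr21:38498478-38498727, had 44.8% G and C, no GC box and 2 ETS cores (GGAA on either strand, in capitals), which 92.7% of all windows hold, with a median of 3:
ERG internal start: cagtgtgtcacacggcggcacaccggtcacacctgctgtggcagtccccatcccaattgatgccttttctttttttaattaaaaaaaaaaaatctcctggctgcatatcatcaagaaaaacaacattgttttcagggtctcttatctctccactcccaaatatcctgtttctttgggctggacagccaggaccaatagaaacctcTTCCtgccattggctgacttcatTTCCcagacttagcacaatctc
Of the windows not shown, chr21:38584946-38585195 had 36.4% G and C and 4 ETS cores, and chr21:38498505-38498754 overlaps the window just given. None of the 4 windows held the longer ETS site CCGGAAG, found in 8.48% of windows. A match is a description of the letters and not a binding site.

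FLI1 (ENSG00000151702, GRCh38 chr11:128686535-128813267, plus strand), the closest relative of ERG, was counted 2 and 4 times in shControl and 0 times in both shYEATS2 libraries. The counts of 0 allow up to 0.0807 CPM in shYEATS2 (3 counts over the group), above the 0.0721 CPM pooled in shControl. A difference in FLI1 was therefore not detectable at this depth, and the ratio of shYEATS2 to shControl had a 95% counting interval from 0 to 1.90. With no filter on low counts FLI1 had an edgeR adjusted p of 0.382.

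ETS2 (ENSG00000157557, GRCh38 chr21:38805183-38824955, plus strand), a ubiquitous factor phosphorylated by ERK, starts 143403 bp from the start of ERG on the same chromosome. Its levels were 180 and 184 CPM in shControl and 198 and 196 CPM in shYEATS2. Both shYEATS2 libraries were above both shControl libraries, but the log2 fold change of 0.12 (SE 0.06, 95% interval −0.00187 to 0.24) did not pass the test (edgeR adjusted p = 0.102). With library totals alone ETS2 was called higher (log2 fold change 0.25, edgeR adjusted p = 5.68e-04). The ratio of ETS2 to ERG counts was 20.7 and 20.6 in shControl and 45.3 and 39.9 in shYEATS2, so these neighbours on chromosome 21 did not keep a fixed ratio.

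ETS1 (ENSG00000134954, GRCh38 chr11:128458761-128587558, minus strand), the founding member of the family, was at 104 and 107 CPM in shControl and 161 and 163 CPM in shYEATS2. The groups did not overlap. ETS1 rose 1.53-fold (log2 fold change 0.62, SE 0.06, 95% interval 0.49 to 0.74, edgeR adjusted p = 3.18e-13). The ratio of ETS1 to ETS2 counts went from 0.582 and 0.580 to 0.811 and 0.831. FLI1 starts 98977 bp from ETS1, and it stayed near 0 in all 4 libraries.

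The PEA3 group rose together. ETV4 (ENSG00000175832, GRCh38 chr17:43527844-43579620, minus strand) was at 9.93 and 10.4 CPM in shControl and 32.5 and 30.8 CPM in shYEATS2, a 3.12-fold rise (log2 fold change 1.64, SE 0.10, edgeR adjusted p = 4.95e-23). ETV5 (ENSG00000244405, GRCh38 chr3:186046314-186110318, minus strand) was at 32.8 and 33.9 CPM in shControl and 105 and 97.0 CPM in shYEATS2, a 3.04-fold rise (95% interval of the log2 fold change 1.46 to 1.75, SE 0.07, edgeR adjusted p = 6.02e-30). In both genes each shYEATS2 library was well above each shControl library. The ratio of ETV4 to ETV5 counts barely differed across the libraries, at 0.303 and 0.307 in shControl and 0.310 and 0.317 in shYEATS2.

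ETV1 (ENSG00000006468, GRCh38 chr7:13891229-13991425, minus strand), the third PEA3 factor, had a smaller rise. It was at 11.2 and 10.8 CPM in shControl and 19.2 and 22.3 CPM in shYEATS2, with no overlap (1.86-fold, log2 fold change 0.89, SE 0.11, edgeR adjusted p = 1.32e-10). Its 95% interval of 0.68 to 1.11 did not overlap that of ETV4 (1.45 to 1.84) or that of ETV5, and the difference between these fold changes was not tested.

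A window before an ETV1 start is shown because it carries TGAATGGA, which with TGAATGAA is the octamer bound by CIC. An octamer of either form, on either strand, stands in 2.17% of all 34943 windows of 250 bases, and in 1 of the 17 windows of the 6 members with a window in the RefSeq table (ERG, ETS2, ETV1, ELF3, EHF and ELK3). The window lies on the minus strand of GRCh38.p14 at chr7:13991426-13991675, directly before the GENCODE start of ETV1 and outside its exons, with the octamer in capitals:
ETV1 upstream start: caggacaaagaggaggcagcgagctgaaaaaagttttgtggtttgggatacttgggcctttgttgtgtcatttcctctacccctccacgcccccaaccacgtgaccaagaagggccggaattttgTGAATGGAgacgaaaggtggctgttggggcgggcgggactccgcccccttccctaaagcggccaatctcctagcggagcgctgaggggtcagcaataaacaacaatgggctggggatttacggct
FLI1, ETS1, ETV4 and ETV5 had no window in the table. Of the 10 ERK output genes with a window, EPHA2 and SPRED3 had an octamer, in 2 of the 16 windows of these genes. Over all 28 ETS genes, 2 of 40 windows held one, in ETV1 and SPDEF.

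ELK3 (ENSG00000111145, GRCh38 chr12:96194375-96269824, plus strand), a ternary complex factor that acts with SRF and turns from repressor to activator when ERK phosphorylates it, was at 58.8 and 59.8 CPM in shControl and 83.6 and 84.3 CPM in shYEATS2. The groups did not overlap, and the libraries of each group lay close together. ELK3 rose 1.42-fold (log2 fold change 0.50, SE 0.07, edgeR adjusted p = 4.27e-09).

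EHF (ENSG00000135373, GRCh38 chr11:34621093-34663288, plus strand), an epithelial ETS factor, was close to absent in shControl, with 3 and 1 counts, and had 40 and 34 counts in shYEATS2. These are 0.0661 and 0.0264 CPM against 1.58 and 2.88 CPM, and the shYEATS2 libraries differed from each other, relative to their mean, by more than those of the other called members. The pooled ratio was 41.4 with a 95% counting interval of 15.5 to 156. No p is given for EHF, since it entered the test only through its level in shYEATS2. ELF5, the epithelial ETS gene 95900 bp from EHF, had at most 1 count in any library. ELF3 (ENSG00000163435, GRCh38 chr1:202007945-202017183, plus strand) had 0, 0, 0 and 3 counts (shControl 1 and 2, shYEATS2 1 and 2), which is at the floor, and its edgeR adjusted p with no filter was 0.283. Its antisense partner ELF3-AS1 had 27, 36, 11 and 3 counts in the same order and did not pass the test (edgeR adjusted p = 0.0898). The strand setting of the counting is not stated, so reads of a gene and its antisense partner may not be separable.

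**Figure D2:**
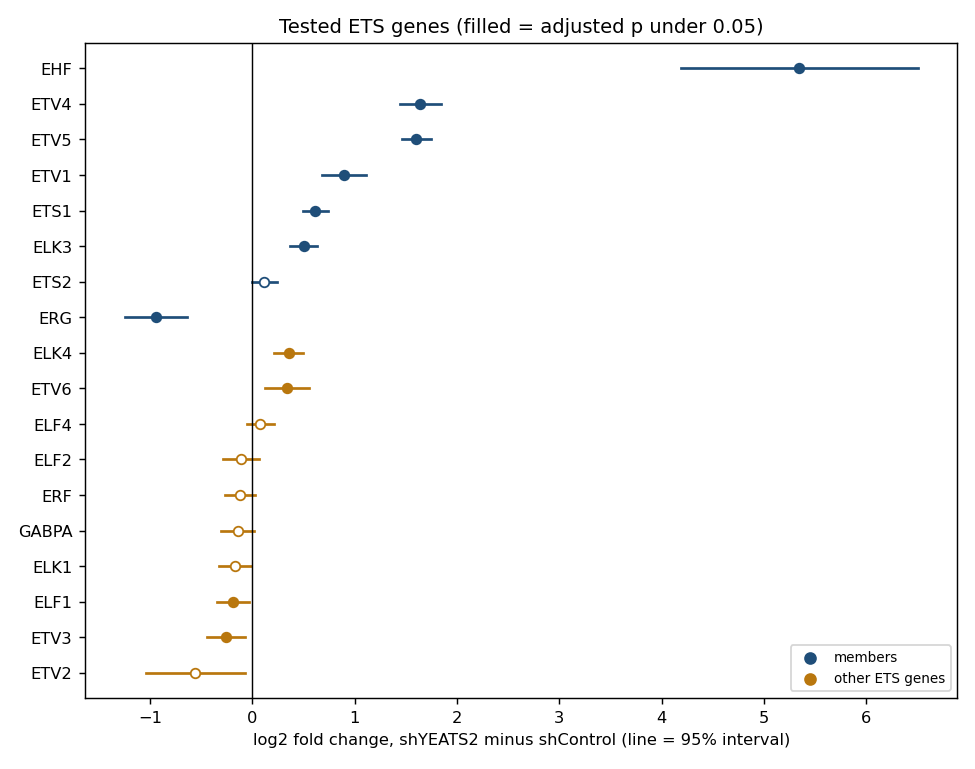
Log2 fold change (shYEATS2 minus shControl) with its 95% interval for the 18 tested ETS genes, members in blue and other family genes in ochre, filled where the edgeR adjusted p was under 0.05. ERG (−0.94) is the called member to the left of 0, and the other family genes lie between −0.56 and 0.36.

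Among the other ETS genes the share of calls was near that of all tested genes (23.6% lower, 22.6% higher). Of the 18, 10 were tested, and ETV3 (log2 fold change −0.26, edgeR adjusted p = 0.0168) and ELF1 (−0.19, 0.0432) were called lower, while ELK4 (0.36, 2.23e-05) and ETV6 (0.34, 0.00717) were called higher. ETV3 is a repressor, ELF1 an activator in lymphoid and other cells, ELK4 a ternary complex factor and ETV6 a repressor. The 2 lower calls were lost with library totals alone, with DESeq2 and in the planned thinning, and without shControl 1, and 1 was lost without shControl 2. The higher calls numbered 1 without shControl 1, without shControl 2 or without shYEATS2 1. ETV2, ERF, ELK1, GABPA, ELF2 and ELF4 had log2 fold changes of −0.56 to 0.08 and did not pass the test. FEV, ETV3L, ELF5, SPDEF, ETV7, SPI1, SPIB and SPIC were too low to test. The median log2 fold change of the 10 tested was −0.13, against −0.01 for all genes. Of these 10, 7 had both shYEATS2 libraries below both shControl libraries and 2 had both above, beside 36.3% and 35.2% of all tested genes.

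Per kilobase of exon, the level of ETS2 was the highest of all 28 family genes in shControl, at 36.6 ± 0.671 CPM per kb (SD, n = 2). Among the members ETS1 followed at 14.8 ± 0.236, ELK3 at 12.8 ± 0.152, ETV5 at 5.78 ± 0.144 and ETV4 at 2.89 ± 0.0974. ERG (1.16 ± 0.0262) and ETV1 (1.15 ± 0.0273) overlapped and cannot be ordered, and FLI1, EHF and ELF3 stood below 0.01 CPM per kb. In shYEATS2 the order of levels began again with ETS2 (39.7 CPM per kb) and ETS1 (22.7), but ETV5 (17.5) reached ELK3 (18.1), with overlapping libraries. ETV4 stood at 9.24 and 8.75 in the 2 libraries, and by their means ETV1 stood at 2.16, ERG at 0.614 and EHF at 0.337 CPM per kb, each apart from its neighbours. With the length of the canonical transcript, 2 places in these orders differed, and leaving out shControl 2 or shYEATS2 2 moved 4.

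ETV1, ETV4 and ETV5 together made up 6.29% of the summed level of the 28 family genes in shControl and 15.3% in shYEATS2 (means of 2 libraries, with no overlap). ERG and FLI1 made up 0.742% and 0.758% in shControl, then 0.305% and 0.350% in shYEATS2. ETS1 and ETS2 together kept close to the same share, at 32.7% and 33.0% in shControl and 32.9% and 33.6% in shYEATS2. The family's summed level was 155 and 158 CPM per kb in shControl and 189 and 185 CPM per kb in shYEATS2.

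**Figure D3:**
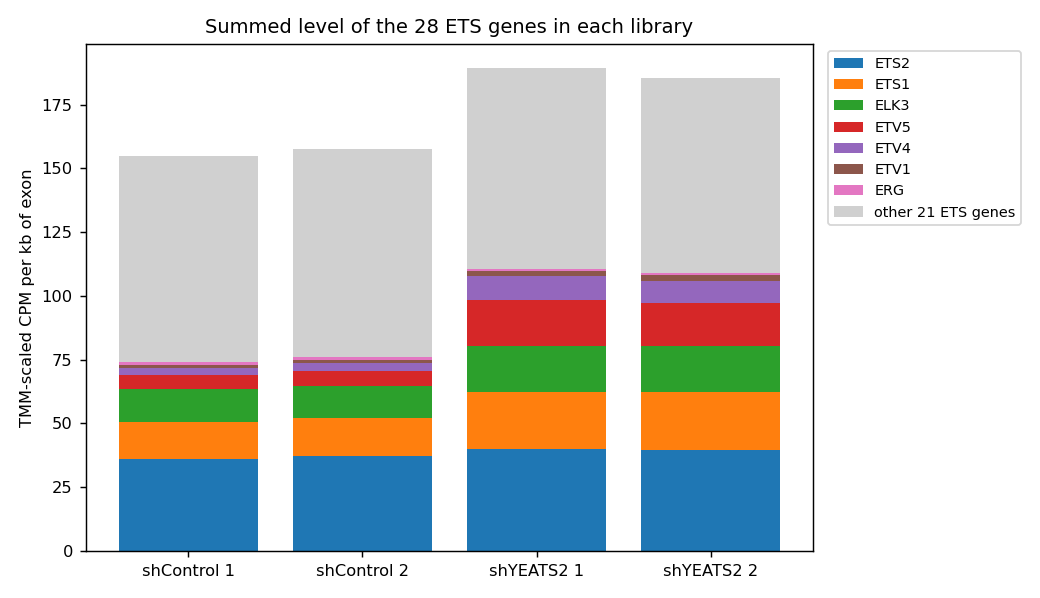
Summed level of the 28 ETS genes in each library, in TMM-scaled CPM per kb of exon, with 7 members as coloured segments and the other 21 genes in grey. ETV5 (red) and ETV4 (purple) widen in both shYEATS2 libraries, and ERG is a sliver in all 4.

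Genes known to follow the activity of ERK, which acts on several members, or to be repressed by CIC, rose in large part. Of 15 such ERK output genes, all tested, 12 were called higher and none lower, beside 22.6% of all tested genes called higher, and 6 of the 12 rose at least 2-fold. The median log2 fold change was 0.93. The list was chosen with earlier results of these data known, so its counts are a description. DUSP4, an ERK phosphatase, was at 4.58 and 4.47 CPM in shControl and 20.1 and 18.3 CPM in shYEATS2 (log2 fold change 2.09, SE 0.12, edgeR adjusted p = 2.63e-23). DUSP5, a nuclear ERK phosphatase, had a log2 fold change of 1.96 (SE 0.10, edgeR adjusted p = 1.46e-27) and PHLDA1 of 1.81 (SE 0.07, edgeR adjusted p = 7.04e-35). SPRY1, SPRED1 and EPHA4 did not pass the test, with log2 fold changes of 0.00, −0.09 and 0.04.

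Genes that regulate ETS proteins or act with them were split. Of 14, all tested, 4 were called lower and 7 higher, beside 23.6% and 22.6% of all tested genes. TRIB1, a pseudokinase that brings targets to the ubiquitin ligase COP1, rose most (log2 fold change 1.12, edgeR adjusted p = 7.72e-15), and ATXN1, a partner of CIC, rose by 0.43 (edgeR adjusted p = 1.66e-05). The kinase MAPK3 (ERK1) fell by 0.51 on the log2 scale (edgeR adjusted p = 4.09e-05). CIC itself was at 80.9 and 82.3 CPM in shControl and 76.0 and 60.1 CPM in shYEATS2 (log2 fold change −0.24, edgeR adjusted p = 0.00759), and shYEATS2 2 was the lower of its group.

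In the list of 13 protease and matrix genes often placed downstream of ETS factors, 9 were tested, 2 called lower and 3 higher, near the 23.6% and 22.6% of all tested genes. MMP7, the matrilysin, went from 22.5 and 24.3 CPM to 4.81 and 3.64 CPM (log2 fold change −2.41, edgeR adjusted p = 1.44e-25), and MMP14, a membrane-bound collagenase, fell by 1.19 on the log2 scale. ITGB3, an integrin subunit, rose by 0.69 (edgeR adjusted p = 6.75e-07), and TNC, the matrix protein tenascin C, and PLAU, the urokinase protease, were called higher. Of 10 immediate-early genes of SRF and the ternary complex factors, 5 were called higher and none lower, beside the same shares of all genes. ATF3, a stress-induced factor, rose by 2.48, FOSB by 1.33, EGR2 by 1.11 and MCL1, a survival protein, by 0.25. The other gene called higher, EGR3, entered the test only through its level in shYEATS2. EGR1 and FOS had log2 fold changes of −0.02 and −0.37 that did not pass the test.

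**Figure D4:**
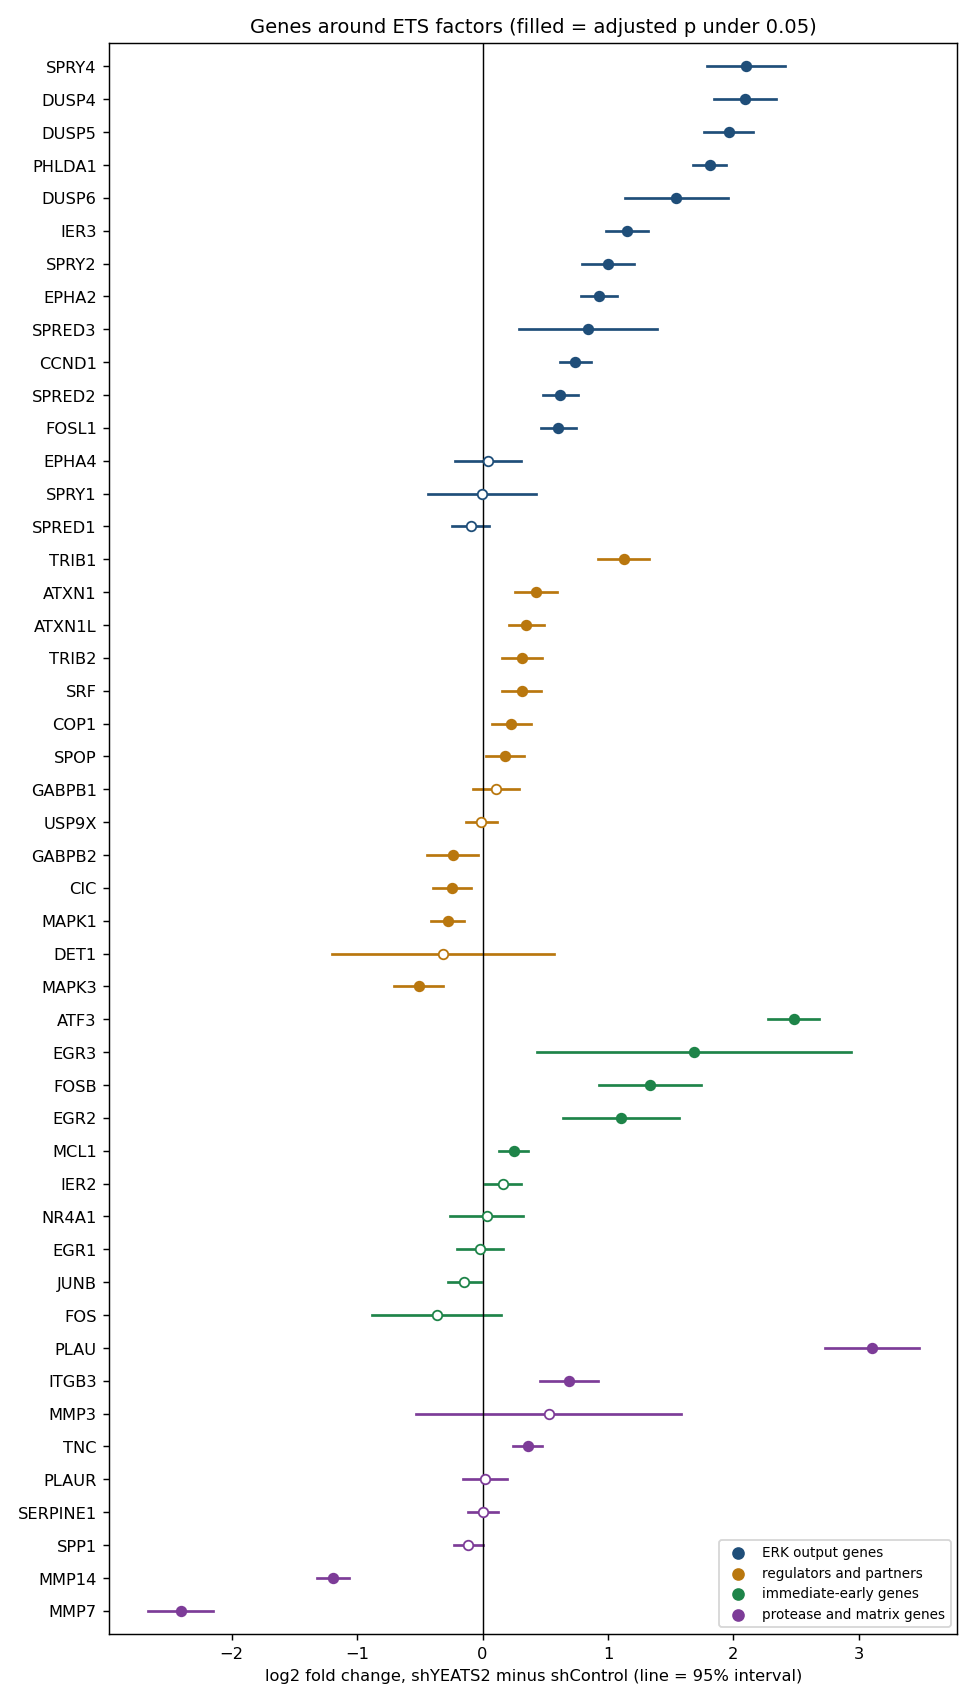
Log2 fold change (shYEATS2 minus shControl) with its 95% interval for the tested genes of 4 lists around ETS factors, coloured by list and filled where the edgeR adjusted p was under 0.05. The 12 called ERK output genes lie to the right of 0, while MMP7 (−2.41) and PLAU (3.11) lie at opposite ends of the protease and matrix list.

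Protein-coding genes starting within 500 kb of each member did not move as a block. Their calls stand beside the 23.6% of all tested genes called lower and the 22.6% called higher. ERG had 1 such neighbour (ETS2, not called) and ETV1 had none. Around ETS2, ERG was lower and PSMG1, a proteasome assembly chaperone, higher (log2 fold change 0.20, edgeR adjusted p = 0.0123). Around ETV4, 13 of 19 neighbours were tested, 2 lower and 1 higher. The higher gene was PPY, which encodes pancreatic polypeptide and starts 363 kb away. It entered the test only through its level in shYEATS2, so a difference was built into its passing. PPY had no count in either shControl library and 213 and 97 counts in shYEATS2 (8.40 and 8.22 CPM), at least 231-fold higher than the floor of 3 counts over the shControl group.

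Around ETV5, 6 of 7 neighbours were tested, with IGF2BP2, an RNA-binding protein higher (41.2 ± 2.48 to 92.3 ± 1.90 CPM, SD, n = 2, log2 fold change 1.16, edgeR adjusted p = 7.39e-23) and 2 lower. Around ELK3 all 8 were tested, with 2 higher, among them NTN4, a basement membrane netrin (log2 fold change 1.11, edgeR adjusted p = 5.22e-22), and CFAP54 lower (−1.33). Around EHF, 4 of 5 were tested, with CAT, the enzyme catalase, lower (−0.53, edgeR adjusted p = 2.34e-09) and ABTB2 higher (0.40). Around ELF3, 10 of 13 were tested, with 2 lower and 3 higher. At each of these loci the calls stand beside 23.6% lower and 22.6% higher among all tested genes. The WNT-related receptor LGR6, which changed most there, was at a mean of 0.828 CPM with the control hairpin and 0.0197 CPM in shYEATS2. LGR6 entered the test only through its level in shControl. Around ETS1 none of 4 neighbours was tested, and around FLI1 only ETS1 was.

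**Figure D5:**
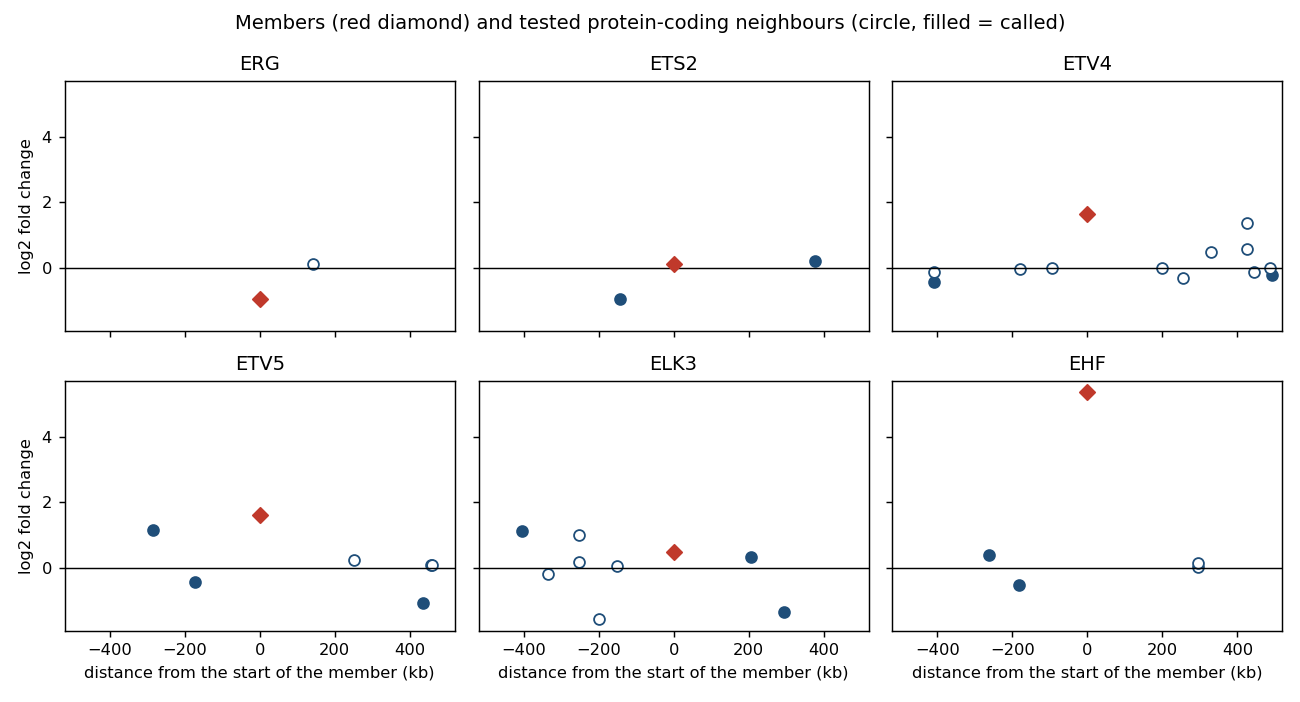
Log2 fold change of 6 members (red diamonds) and of their tested protein-coding neighbours (circles, filled where called) against the distance from the start of the member in kb, with negative distances toward lower chromosome positions. PPY, at 0 in shControl, is left out, and in the ETS2 panel ERG is the filled circle below 0.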

How the data were processed

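Counts of read pairs per gene came from 4 deposited tables, 1 per library. The authors made stranded mRNA libraries, aligned reads to GRCh38 with STAR, counted them with HTSeq and deposited whole-number counts without normalization, per the labels and the paper's methods. The aligner's version, the annotation release and whether counting used strand are not given in the sources used here. Tally lines for reads outside genes or not assigned (15.3 to 16.5% of a library) were left out of totals and tests.

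Genes were kept with edgeR's filterByExpr (17058 of 60623), scaled by TMM and tested with edgeR 4.0.16 (glmQLFit, robust, glmQLFTest) in R 4.3.3, with Benjamini-Hochberg adjustment over all tested genes and a threshold of 0.05. The groups came from the library titles. Each ± is the SD of 2 libraries. With 2 against 2 libraries the smallest two-sided exact permutation p is 0.333. Replicates differed by more than counting noise (chi-square per degree of freedom 5.95 in shControl and 5.39 in shYEATS2), and the common biological coefficient of variation was 4.95%. Intervals from counts and floors of 3 counts cover counting error only.

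The members and the gene lists were chosen with earlier results of these data known. The text names the members, YEATS2, the other ETS genes, and in each list the 3 called genes of largest change with a mean of at least 10 CPM. It also names called neighbours within 500 kb and the 3 genes most like ERG. KDR, SOX18, TEK, CDH1, ITGA6, PLAU, CIC, EGR1, FOS, SPRY1, SPRED1 and EPHA4 were named after their values were seen. So were KRT5, KRT14, DSP, FAP, TCF21, COL1A1, COL1A2, COL3A1, FOSB, EGR2 and EGR3. Positions, exon lengths and neighbours are from GENCODE release 44, which held 60295 of the identifiers. Windows of 250 bases before start sites are from RefSeq (GRCh38.p14), found for 6 of 10 members. Alternatives were other scalings (DESeq2's size factors, upper quartiles, library totals), other filters (none, or a minimum of 10 counts in each library), other tests (limma-voom with limma 3.58.1, DESeq2 1.42.0, the likelihood ratio test of edgeR), a replicate block, thinned counts, stricter thresholds and each library left out. The chromatin data of the study were not analysed here.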

Additional observations from a re-analysis of the deposited data

How the results depend on the processing

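ETS1, ETV1, ETV4, ETV5, ELK3 and YEATS2 kept their direction and their call under every alternative that gave a value, apart from the 2-fold minimum. EHF kept its direction, but a difference was built into its passing the filter, so its call is not counted here. It could not be fitted under a filter of at least 10 counts in every library. ERG was not called in 2 of 5 thinnings to the smallest total, with log2 fold changes of −0.65 and −0.70, so the count of members called lower was then 0. ETS2 was called with library totals alone (0.25). At 2-fold, 0 members were lower and 3 higher, EHF among them. Over all genes the counts were 631 and 1022, in the other ETS family 0 and 0, and in the regulators 0 and 1. In the protease list they were 2 and 1, and in the ERK output list 6 were higher.

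Over all genes, library totals alone gave 2567 lower, DESeq2 gave 2393 higher, and the planned thinning gave 2446 lower and 2433 higher. The 4 further thinnings, chosen after seeing the data, gave 2374, 2342, 2392 and 2396 lower and 2310, 2303, 2280 and 2347 higher. Lower calls in the other ETS family numbered 1 with DESeq2's size factors or upper quartiles and 0 with library totals alone, DESeq2, an adjusted p under 0.01 or 4 of 5 thinnings, and higher calls 1 with DESeq2 or any of the 4 added thinnings. Regulators called lower numbered 1 with library totals alone and 1, 1, 2 and 2 in the planned thinning and in draws 3, 4 and 5, and 4 were higher in draw 3. Immediate-early genes called lower numbered 1 with no filter, with the replicate block and in draw 2, and 2 and 3 were higher in draws 2 and 3. The canonical transcript length, added after seeing the data, moved 2 places in the order of member levels. The cause was not tested for any of these.

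Leaving out each library in turn gave 0 to 3 lower and 1 to 3 higher other ETS genes, 2 to 3 lower and 4 to 7 higher regulators, 0 to 2 lower immediate-early genes, and 0 to 4 places moved in the order of levels. The regulators called lower were 2 without shControl 2 and those called higher 4 without shYEATS2 1, and the immediate-early genes called lower were 2 without shYEATS2 1. A lone library in a group is assumed to vary like the other group.

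The labels number the libraries of both groups alike, but the correlation of same-numbered deviations was −0.018, so the numbers were not taken as pairs. With a replicate block, 4142 genes were lower and 3870 higher, and the calls on the 7 tested members other than EHF stayed.

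With 2 libraries a group, lower depth in both shYEATS2 libraries cannot be told apart from the condition. FLI1 and ELF3 lie at the limit of detection, and counts per gene cannot separate the start sites of ERG or ETV1.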
